A study of Homo sapiens with 14 samples.

Results

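The 84 genes described here encode proteins of the cytosolic ribosome and their close paralogs. They were taken by gene symbol, as symbols of the form RPL or RPS followed by a number (with A, X or L where present), together with RPSA and the acidic stalk genes RPLP0, RPLP1 and RPLP2. Kinases named after ribosomal protein S6 and the mitochondrial ribosomal protein genes were left out. The 84 genes are among 19923 in each count table. Of them, 32 encode small subunit (RPS) and 52 large subunit (RPL) proteins, and 7 are paralogs of a more widely expressed member (RPL3L, RPL7L1, RPL10L, RPL22L1, RPL26L1, RPL39L and RPS27L).

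RNA was sequenced in 14 libraries of SK-N-BE2, an established human neuroblastoma line with an amplified MYCN gene, grown in serum-containing medium. In batch 1, CoCl2 was added at 10 µM or at 50 µM, and H2O was the vehicle control, with 2 libraries per group. Cobalt chloride is a metal salt widely used to stabilise hypoxia-inducible factors. Batch 2 held cells labelled WT and cells labelled TET2KO 1, 2 and 3, again with 2 libraries each, and no agent is named for them. The study's title asks about 5-hydroxymethylcytosine, the base that TET2 makes, and about Polycomb in this disease. The labels do not give the way the knockouts were made, whether each number is a clone, or whether replicates were separate cultures, so p-values measure only the spread between these libraries, which may be technical.

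Each cytosolic ribosome holds 1 copy of most of these proteins, and the cell makes them in a balanced supply. The small subunit reads the mRNA, the large subunit joins amino acids, and the stalk proteins P0, P1 and P2 recruit translation factors. Most ribosomal protein mRNAs belong to the TOP class. A TOP mRNA begins with a C followed by a run of pyrimidines, and its translation depends on the kinase mTOR through the binding protein LARP1. MYC family proteins, among them MYCN, are known to raise ribosome production, which makes this gene set of interest in neuroblastoma.

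The start windows below show what the TOP class looks like in the genes on which the later results turn, beside paralogs of 2 of them. Each runs 5′ to 3′ from 15 bases before to 15 bases after the RefSeq start (GRCh38.p14), and capitals mark a C at the start with the unbroken run of C and T that follows.
RPL34, chr4:108620561-108620590, plus strand: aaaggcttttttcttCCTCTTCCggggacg
RPS12, chr6:132814554-132814583, plus strand: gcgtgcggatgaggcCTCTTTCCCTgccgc
RPLP2, chr11:809952-809981, plus strand: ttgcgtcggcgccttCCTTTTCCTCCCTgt
RPS23, chr5:82278340-82278369, minus strand: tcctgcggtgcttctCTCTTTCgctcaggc
RPS27, chr1:153990747-153990776, plus strand: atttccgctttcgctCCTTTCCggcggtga
RPS27L, chr15:63157463-63157492, minus strand: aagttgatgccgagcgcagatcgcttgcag
RPL22, chr1:6199581-6199610, minus strand: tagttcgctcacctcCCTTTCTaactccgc
RPL22L1, chr3:170870181-170870210, minus strand: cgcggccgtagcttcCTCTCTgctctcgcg
RPS27L has no such run at this start, whereas RPL22L1 has one of 6 bases.

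Of the 84 genes, 67 matched a RefSeq start by symbol. A C followed by at least 4 pyrimidines stood at a start of 46 of 62 matched members that are not paralogs (74.2%) and of 1 of 5 matched paralogs. The share was 6.32% of the 15085 protein-coding genes that matched and 8.70% of 69 mitochondrial ribosomal protein genes. Motifs were searched in the 300 bases around the start, read on both strands. The ETS factor motif CCGGAAG was found in 35.8% of the 67 matched members against 16.7% of all matched genes. It was found in 43.5% of the 69 mitochondrial ribosomal protein genes, so its excess was not particular to the members. The E-box CACGTG, a motif of MYC family proteins, was found in 7.46% against 10.9%, the SP1 motif GGGCGG in 58.2% against 65.2%, and TATAAA in 10.4% against 12.4%. None of these motifs contains another, although matches can share end bases, and a match describes letters only.

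Counts came from the deposited tables, and levels are given as CPM, counts relative to the library's scaled total. Total counts ran from 31214128 to 39540111 per library in batch 1 and from 52095024 to 59263320 in batch 2, where the 2 reads of a pair were mostly counted separately. Comparisons stayed within a batch. A gene was called changed at an adjusted p under 0.05 in edgeR's quasi-likelihood test over all genes tested, with Benjamini-Hochberg adjustment. Shares of all genes called are given for this test alone, and not for counts at an unadjusted p, from DESeq2 or from other settings. SE is the standard error of a log2 fold change. Markers of adrenergic neuroblastoma cells summed to between 5594 and 9381 CPM over 9 genes. Erythroid markers were at 0 in all but 2 libraries, and of the leukocyte markers CD68 gave nearly all of a sum of 5.09 to 19.1 CPM. TET2 mRNA was not lower in the libraries labelled TET2KO, with 70.8 and 64.8 CPM in WT, 80.4 and 76.6 in TET2KO 1, 87.4 and 91.1 in TET2KO 2, and 68.2 and 75.4 in TET2KO 3. Loss of TET2 could therefore not be checked from counts, and every direction below rests on the labels.

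Of the 84 members, 82 passed the filter on low counts in each batch. RPL10L had 7 counts and RPL3L had 93 counts over all 14 libraries together. RPL10L was tested in neither batch and RPL3L in batch 2 alone. Among the highest levels per kilobase of exon, averaged over all libraries, were those of RPS12 (653 CPM per kilobase), RPL19 (632), RPS2 (613) and RPS18 (537). At the low end, RPS27L stood at 2.78 and RPL36A at 1.11 CPM per kilobase.

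The share of a library's counts that fell in the 84 genes rose with the cobalt dose. It was 3.75% and 3.74% in the H2O libraries, 3.94% and 3.91% at 10 µM, and 4.25% and 4.34% at 50 µM. The 3 groups did not overlap. The ratio to H2O was 1.05 at 10 µM and 1.15 at 50 µM. Small subunit genes went from 1.61% to 1.86% of counts and large subunit genes from 2.13% to 2.44% between H2O and 50 µM. In batch 2 the share was 4.76% and 4.89% in WT, 4.77% and 4.81% in TET2KO 1, 4.68% and 4.73% in TET2KO 2, and 5.05% and 4.89% in TET2KO 3. TET2KO 2 lay below both WT libraries, TET2KO 1 lay between them, and TET2KO 3 lay above them, in 1 library by a margin smaller than the rounding. With 2 libraries against 2, no exact permutation test of a share can reach p below 0.05. Counted per kilobase of exon, the TET2KO 2 share was 1.01 times that of WT in place of 0.975 times, so its direction turned with the unit. In that unit the mean shares were 7.08% in WT, 7.15% in TET2KO 1, 7.18% in TET2KO 2 and 7.11% in TET2KO 3. The mean of TET2KO 1 thus also turned, and TET2KO 2 stood above TET2KO 3. The TET2KO 3 libraries were at 7.21% and 7.02%, and those of WT at 7.03% and 7.12%.

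**Figure D1:**
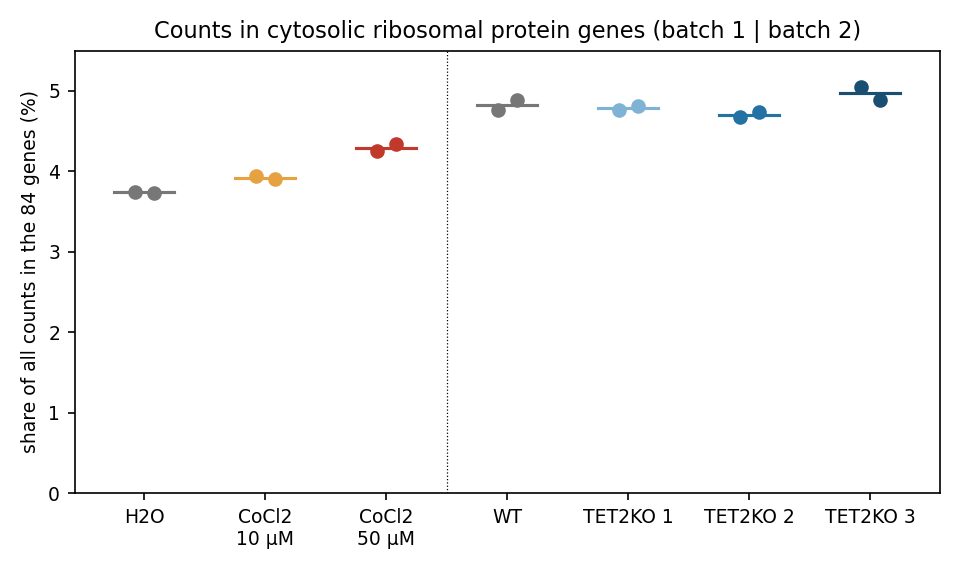
Percent of each library's counts that fell in the 84 cytosolic ribosomal protein genes (y axis) by group (x axis), with 1 point per library and a bar at the group mean; the dotted line separates batch 1 from batch 2. The share rises from 3.74% in H2O to 4.34% in the higher of the 50 µM libraries, and the batch 2 groups lie between 4.68% and 5.05%.

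The cobalt comparison asked how the cells' RNA changes under CoCl2. At 50 µM, 73 of 82 members rose and 1 fell, where 61.4% of all genes tested were called (30.4% higher and 31.1% lower). Their median log2 fold change was 0.21, a rise of 15.3%, where the median of all 13636 genes was 0.00. At 10 µM, 51 rose and 2 fell, with 22.7% of all genes called (11.6% higher and 11.1% lower), and the median was 0.07 or 5.08%. Between the doses, 65 were higher at 50 µM and 1 was lower, with 52.8% of all genes called (26.2% higher and 26.5% lower). In 61 of the 82 members all 6 libraries stood in the order H2O, 10 µM, 50 µM without overlap, an order that 14.9% of all genes showed, and none stood in the falling order, which 15.1% of all genes showed. Both 50 µM libraries were above both H2O libraries in 75 members and below in 3 (39.2% and 39.3% of all genes). Both 10 µM libraries were above both H2O libraries in 65 members and below in 4 (29.4% and 29% of all genes). Both 50 µM libraries were above both 10 µM libraries in 72 and below in 2 (37.4% and 37.1%). The comparisons at the 2 doses share the H2O libraries.

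The rise was seen in both subunits, and few members stood apart. At 50 µM, 29 of 31 small subunit members other than RPS27L rose and 1 fell, with a median of 0.20. Of 46 large subunit members that are not paralogs, 43 rose and none fell, with a median of 0.21. At an unadjusted p under 0.05, 73 of the 82 members were higher and 1 was lower, and DESeq2 called 67 higher and none lower. Neither count has a share of all genes beside it. The middle 90% of members lay between 0.00 and 0.34 on the log2 scale, where all genes spanned -0.68 to 0.64. Most members had high counts, whereas all genes tested include genes near the filter on low counts. Neither the spread nor the share called was compared with genes of like counts.

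**Figure D2:**
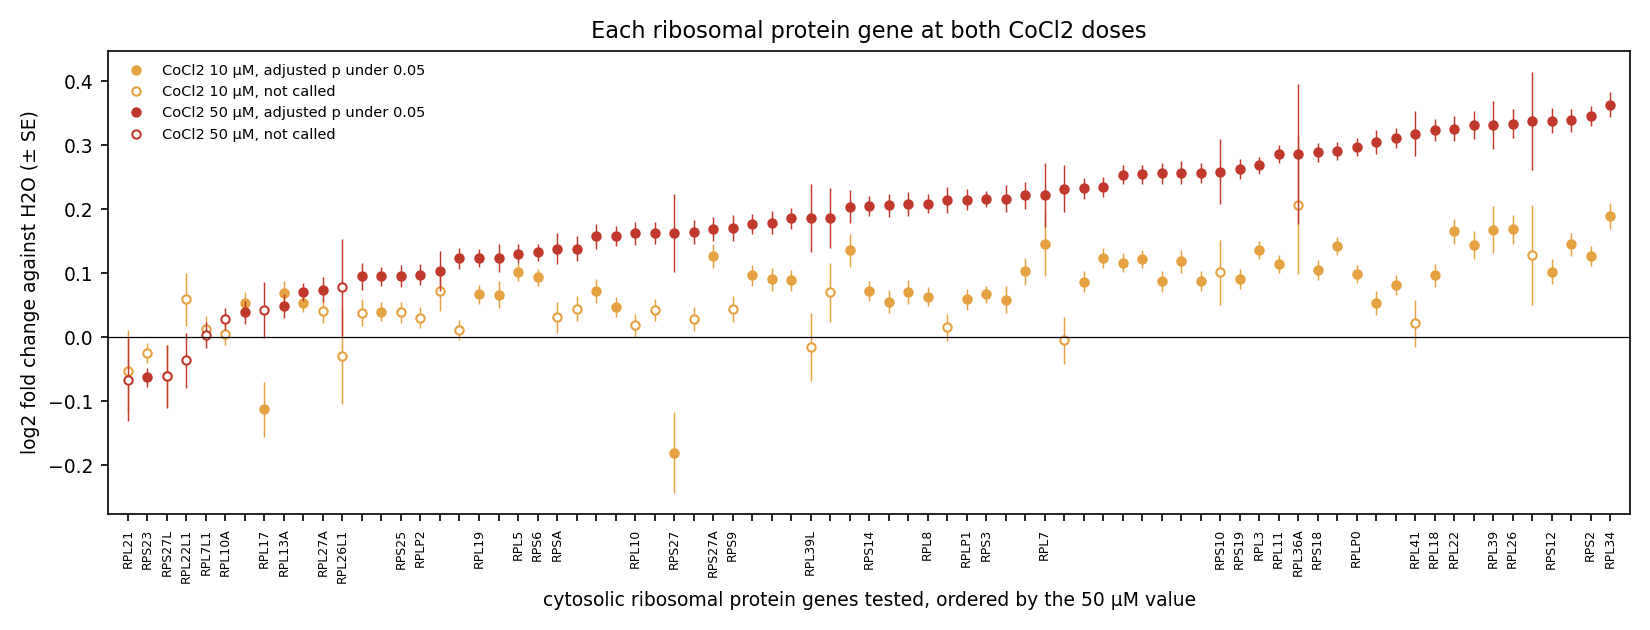
Log2 fold change against H2O with its SE (y axis) for the tested members reported here (x axis, ordered by the 50 µM value, with names for those described in the text), at 10 µM (orange) and 50 µM (red), with filled points for adjusted p under 0.05. Most members lie above 0 at both doses and higher at 50 µM, RPL34 stands at 0.36 at 50 µM, and RPS27 is the lowest at 10 µM at -0.18.

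The rise is shown here by members from both subunits. RPL34, a large subunit protein, was at 231 and 231 CPM in H2O, 262 and 264 at 10 µM, and 296 and 298 at 50 µM. Its groups did not overlap, and its change of 0.19 was the largest called rise at 10 µM (SE 0.02, adjusted p 4.25e-15) and 0.36 at 50 µM (SE 0.02, adjusted p 7.47e-40). RPS2, a small subunit protein at the mRNA entry, rose from 552 and 548 CPM to 604 and 597 and then to 691 and 707 (0.35 at 50 µM, SE 0.016, adjusted p 3.94e-48).

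RPL26 and RPL39, the next largest rises at 10 µM, each changed by 0.17 there and by 0.33 at 50 µM. RPL26 lies at the exit of the peptide tunnel and shares 14.5% of its exon bases with AC135178.3. It was at 157 and 160.3 CPM in H2O and at 200.01 and 200.2 at 50 µM. RPL39, a small protein inside the tunnel, was at 48.0 and 45.5 CPM in H2O and at 58.2 and 59.4 at 50 µM. RPS12, the member with the highest level per kilobase, rose from 288 and 294 CPM to 368 and 368 at 50 µM, a change of 0.34 (SE 0.019, adjusted p 1.89e-38). RPL41, the smallest ribosomal protein, was at 51.9 and 52.5 CPM in H2O, 54.4 and 51.7 at 10 µM, and 63.0 and 67.0 at 50 µM. Its 10 µM libraries overlapped with H2O, while it rose by 0.32 at 50 µM (SE 0.036, adjusted p 6.26e-15).

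RPS23, a protein of the decoding centre, was the only member called lower at 50 µM. It was at 1040 and 1026 CPM in H2O, 1042 and 989 at 10 µM, and 976 and 1002 at 50 µM. The 10 µM libraries spanned the H2O ones. Its change was -0.06 at 50 µM (SE 0.015, adjusted p 0.000163), and DESeq2 and the fit of all 14 libraries did not call it. RPS23 shares 9.21% of its exon bases with ATG10 on the other strand, and reads were counted without regard to strand.

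RPS27 and RPL17 were the members called lower at 10 µM. RPS27, a zinc-finger protein of the small subunit, was at 16.8 and 16.5 CPM in H2O, 14.6 and 14.8 at 10 µM, and 18.6 and 18.7 at 50 µM. It was thus lowest at 10 µM and highest at 50 µM (-0.18, SE 0.063, adjusted p 0.0247 and 0.16, SE 0.061, adjusted p 0.0146). RPL17 was at 38.1 and 35.6 CPM in H2O, 34.1 and 34.0 at 10 µM, and 37.0 and 38.8 at 50 µM. Its fall of 0.11 at 10 µM had an adjusted p of 0.0443, and 24.8% of its exon bases are shared with the readthrough gene RPL17-C18orf32. DESeq2 and the fit of all 14 libraries called neither. The fall of RPS27 was not called without any 1 of its 4 libraries (-0.19 to -0.17), nor that of RPL17 without H2O replicate 1 (-0.06), 10 µM replicate 1 (-0.12) or 10 µM replicate 2 (-0.11).

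Other members not called at 50 µM included RPL10A, RPL21 and 4 paralogs. RPL10A, a protein of the L1 stalk, was at 456 and 459 CPM in H2O and at 459 and 475 at 50 µM (0.03, SE 0.017). RPL21 was at 16.5 and 15.8 CPM in H2O and at 15.04 and 15.7 at 50 µM (-0.07, SE 0.064). These intervals do not show that the genes stayed level.

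Paralogs and their better known partners gave different values under cobalt. Of the 5 paralogs tested, 1 rose at 50 µM, RPL39L, from 21.8 and 21.4 to 24.8 and 24.4 CPM (0.19, SE 0.053, adjusted p 0.0014), beside 0.33 for RPL39. At 10 µM RPL39L was at 21.2 and 21.6 CPM, level with H2O. RPS27L was at 28.0 and 27.9 CPM in H2O and at 26.7 and 26.8 at 50 µM (-0.06, SE 0.049), beside 0.16 for RPS27. RPL22L1 was at 37.6 and 42.1 CPM in H2O and 39.1 and 38.6 at 50 µM (-0.04, SE 0.043), while RPL22 rose from 246 and 246 to 305 and 311 CPM (0.33, SE 0.02, adjusted p 2.18e-35). RPL7L1, a ribosome assembly protein, was at 236 and 238 CPM in H2O and at 239 and 236 at 50 µM (0.00, SE 0.021), beside 0.22 for RPL7. In H2O, RPL7 stood at 25.1 and 24.1 CPM and RPS27 at 16.8 and 16.5, each below its paralog. Both were far higher in the WT libraries of batch 2, as given below, so their values here rest on low counts. RPL26L1 changed by 0.08 (SE 0.076) and RPL26 by 0.33. RPL3, whose paralog RPL3L was not tested in batch 1, rose by 0.27 from 1557 and 1538 to 1844 and 1885 CPM, and RPL10, which shares 34.2% of its exon bases with DNASE1L1 on the other strand, rose by 0.16. The differences between partners were not tested.

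The 3 stalk genes rose by unequal amounts. RPLP0, the stalk base, went from 1078 and 1070 CPM to 1308 and 1332 at 50 µM (0.30, SE 0.014). RPLP1 went from 547 and 532 to 620.4 and 631 CPM (0.21, SE 0.016), and RPLP2 from 529 and 539 to 566 and 576 CPM (0.10, SE 0.017). In each the 50 µM libraries were above both H2O libraries, and the largest adjusted p of the 3 was 8.7e-08.

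Members with further roles also rose at 50 µM. RPL5 and RPL11 bind 5S rRNA and, when ribosome assembly fails, the ubiquitin ligase MDM2. RPL5 went from 1043 and 1057 to 1137 and 1162 CPM (0.13, SE 0.014) and RPL11 from 999 and 1012 to 1216 and 1236 CPM (0.29, SE 0.014). RPS6, the substrate of S6 kinase, went from 1629 and 1646 to 1778 and 1812 CPM (0.13, SE 0.013). RPS3, which also acts in DNA repair, rose by 0.22. RPS14 and RPS19, both mutated or lost in human anaemias, rose by 0.21 and 0.26. RPSA, also known as a laminin receptor, rose by 0.14, and RPS27A, made as a fusion with ubiquitin, by 0.17. RPL13A, part of an interferon-induced translation silencer, rose by 0.05 (SE 0.019, adjusted p 0.0176) and was at 331 and 329 CPM in H2O and 338 and 345 at 50 µM. DESeq2 did not call it, and the call was lost without H2O replicate 1 (0.05) or 2 (0.04) or without 50 µM replicate 2 (0.03).

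Other genes of the pathway moved less evenly at 50 µM, where 61.4% of all genes were called (30.4% higher and 31.1% lower). All 4 ribosomal proteins whose symbols fall outside the naming pattern rose, among them FAU (0.24), RACK1 (0.22) and RPL36AL (0.09). Of 14 other TOP mRNAs tested, which encode translation factors for the most part, 9 rose and 2 fell (78.6% called), with a median of 0.08. At 10 µM, 12 of them rose and none fell, where 11.6% of all genes were called higher and 11.1% lower. EEF1B2 and EEF2 rose by 0.32 and 0.28, while EEF1A1 and EIF3K fell by 0.04 and 0.24. Of 77 mitochondrial ribosomal protein genes tested, 13 rose and 27 fell (51.95% called, against 61.4% of all genes, 31.1% lower), with a median of -0.02. Among 13 genes for mTOR complex 1, its regulators, its targets and LARP1, 9 rose and 2 fell (84.6% called). MTOR fell by 0.20, RPTOR rose by 0.18 and LARP1 rose by 0.14. Among 5 factors known at ribosomal protein promoters, MAX rose by 0.19, and MYCN, GABPA, YY1 and SP1 fell by 0.22, 0.30, 0.17 and 0.11. MYCN was at 5252 and 5231 CPM in H2O, 5577 and 5562 at 10 µM, and 4500 and 4497 at 50 µM. CDKN1A, a cell cycle inhibitor, rose by 1.19, while MDM2 was at -0.04 (SE 0.027) and not called.

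Marker sums of other cell types and of the line itself also differed between doses. Adrenergic markers summed to 9004 and 8971 CPM in H2O, 9381 and 9346 at 10 µM, and 8017 and 8067 at 50 µM. Mesenchymal markers summed to between 142 and 145 CPM in H2O, 154 and 159 at 10 µM, and 192 and 197 at 50 µM over 7 genes, with COL1A2 at 0 in most libraries. Of the 6 mesenchymal markers tested, 2 rose and 2 fell at 50 µM, with a median of -0.17, so the sum and the median differ in sign. The leukocyte sum went from between 5.09 and 5.31 CPM in H2O to between 18.8 and 19.1 at 50 µM, through CD68, with PTPRC and ITGAM at 0 in 5 or more of the 6 libraries. Endothelial markers summed to between 1.61 and 1.89 CPM in H2O and between 0.84 and 0.864 at 50 µM. The part of these markers in the result was not tested. In these bulk libraries, fewer cells of a type and less RNA per cell cannot be told apart. Mitochondrially encoded genes were at 0 in every batch 1 library.

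**Figure D3:**
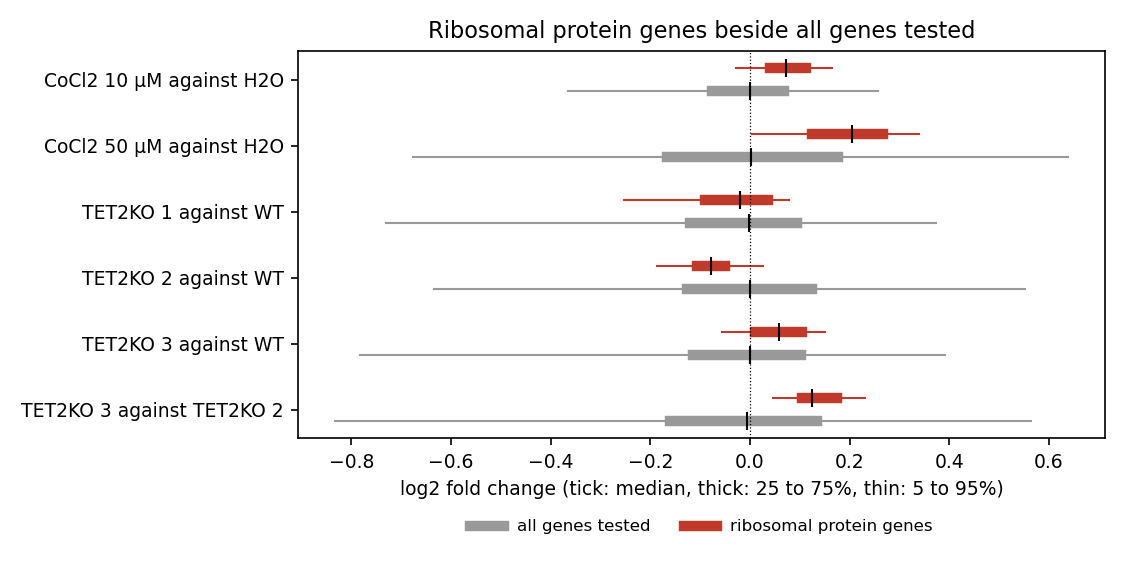
Log2 fold change (x axis) of the ribosomal protein genes (red) and of all genes tested (grey) in 6 comparisons (y axis), with the median as a tick, the middle 50% as a thick bar and the middle 90% as a thin line. The members form a narrow band, centred at 0.21 for 50 µM, -0.08 for TET2KO 2, 0.06 for TET2KO 3 and 0.13 between TET2KO 3 and TET2KO 2. All genes tested include many with lower counts than the members.

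The libraries labelled TET2KO were each compared with the same 2 WT libraries. The members did not move 1 way across them. In TET2KO 1, 6 of 82 members rose and 19 fell, with 17.5% of all genes called (7.79% higher and 9.72% lower) and a median of -0.02. In TET2KO 2, 1 rose and 38 fell, with 26.3% of all genes called (12.0% higher and 14.3% lower) and a median of -0.08. In TET2KO 3, 28 rose and none fell, with 18.9% of all genes called (8.9% higher and 9.96% lower) and a median of 0.06. In that comparison none was lower at an unadjusted p under 0.05 or with DESeq2, and 39 were higher at the unadjusted p, without a share of all genes to read these against. The median of all genes was 0.00 in each.

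Counted by overlap alone, both TET2KO 1 libraries were above both WT libraries in 19 members and below in 34 (26.6% and 27.6% of all genes). For TET2KO 2 the counts were 2 and 63 (29.7% and 31.0%), and for TET2KO 3 they were 43 and 7 (27.1% and 27.7%).

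The counts of called members moved with single libraries. In TET2KO 2 the number called was 15 without WT replicate 2 and 14 without TET2KO 2 replicate 1. In TET2KO 3 it was 9 without WT replicate 1 and 15 without TET2KO 3 replicate 1, and in TET2KO 1 it was 11 without TET2KO 1 replicate 2. An offset for gene length left 15 higher and 3 lower in TET2KO 3 and 2 higher and 26 lower in TET2KO 1, where DESeq2 gave 1 higher and 17 lower. The median of the members in each library, set against the WT mean on the log2 scale, was -0.02 and 0.02 in WT, -0.02 and -0.01 in TET2KO 1, -0.08 and -0.06 in TET2KO 2, and 0.08 and 0.03 in TET2KO 3. Both TET2KO 1 libraries lay between the WT replicates.

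The average of the 3 labelled knockouts against WT called 4 members higher and 15 lower, with 18.9% of all genes called (7.54% higher and 11.4% lower). Scaled by library totals the split was 7 higher and 12 lower, and with the length offset 1 and 22. With 1 coefficient for all 6 knockout libraries, edgeR called none, 1 was higher and 6 were lower at an unadjusted p under 0.05, and DESeq2, fitted with a coefficient per group, called 4 higher and 15 lower. Without WT replicate 2, the average called 9 members. RPL8 and RPS9 were among the largest called rises in the average, and RPS10, RPL36A and RPS27L the largest falls. RPL8 and RPS9 were not called without WT replicate 1 (0.03 and 0.04), TET2KO 1 replicate 2 (0.06 and 0.08), TET2KO 2 replicate 2 (0.06 and 0.07) or TET2KO 3 replicate 1 (0.06 and 0.07), nor with a block for the replicate number.

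A test of any difference among TET2KO 1, 2 and 3 called 69 of 82 members, where 37.6% of all genes were called. Against WT the knockouts had 25, 39 and 28 members called, beside 17.5%, 26.3% and 18.9% of all genes. The test among knockouts thus called more of the members and more of all genes alike. It covers 2 differences at once and is not the same kind of test as a single comparison with WT. TET2KO 3 was above TET2KO 2 in 68 members and below it in none, with a median of 0.13, where 34.2% of all genes were called (17.3% higher and 16.8% lower). In 74 members both TET2KO 3 libraries lay above both TET2KO 2 libraries, which was so for 31.7% of all genes, and in none did both lie below, as 33.2% of all genes did. TET2KO 3 was above TET2KO 1 in 32 and below in none (8.3% of all genes called, 4.41% higher and 3.89% lower). TET2KO 2 was above TET2KO 1 in 1 and below in 27 (26.5% of all genes called, 12.9% higher and 13.6% lower). Without overlap, TET2KO 3 was above TET2KO 1 in 55 and below in 2 (24.0% and 23.9% of all genes), and TET2KO 2 was above TET2KO 1 in 8 and below in 50 (31.6% and 29.6%). At an unadjusted p under 0.05, no member was lower in TET2KO 3 than in TET2KO 2 or TET2KO 1, and 50 were higher than in TET2KO 1. DESeq2 called 67 members in the test among knockouts. For these unadjusted and DESeq2 counts the shares of all genes are not given.

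The 5 members with the smallest adjusted p among knockouts were RPLP2, RPS25, RPL13A, RPS27A and RPL27A. RPLP2 was at 325 and 352 CPM in WT, 319 and 318 in TET2KO 1, 289 and 289 in TET2KO 2, and 356 and 384 in TET2KO 3. TET2KO 2 was below and TET2KO 3 above both WT libraries (-0.23, SE 0.035, adjusted p 8.5e-09 and 0.13, SE 0.034, adjusted p 0.00268). The TET2KO 3 value was 0.07 and not called with the length offset, and was also not called without WT replicate 1 (0.07) or TET2KO 3 replicate 2 (0.08). RPS25, which some viral mRNAs need for their translation, was at 383 and 389 CPM in WT, 327 and 319.6 in TET2KO 1, 343 and 339.7 in TET2KO 2, and 381 and 391.5 in TET2KO 3. TET2KO 1 and 2 were below WT (-0.26, SE 0.033, adjusted p 2.51e-11 and -0.18, SE 0.033, adjusted p 3.55e-06), and TET2KO 3 spanned WT.

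RPL13A was at 1065 and 1129 CPM in WT, 1157 and 1154 in TET2KO 1, 1011 and 1045 in TET2KO 2, and 1221 and 1175 in TET2KO 3. It was thus lower in TET2KO 2 (-0.09, adjusted p 0.00791) and higher in TET2KO 3 (0.13, adjusted p 0.000268) than in WT. RPS27A was at 592 and 621 CPM in WT, 589 and 576 in TET2KO 1, 560.5 and 569 in TET2KO 2, and 649 and 667 in TET2KO 3. RPL27A was at 436 and 461 CPM in WT, 414 and 428 in TET2KO 1, 404 and 417 in TET2KO 2, and 472 and 489.9 in TET2KO 3. Both were called lower in TET2KO 2 (-0.10 and -0.13) and higher in TET2KO 3 (0.12 and 0.10). The falls of RPL13A, RPS27A and RPL27A were not called without WT replicate 2 (-0.06, -0.08 and -0.09) or TET2KO 2 replicate 1 (-0.07, -0.09 and -0.10). Their rises were not called without WT replicate 1 (0.09, 0.08 and 0.06), nor was that of RPL27A without TET2KO 3 replicate 2 (0.08). The largest adjusted p of the 5 in the test among knockouts was 1.38e-10.

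**Figure D4:**
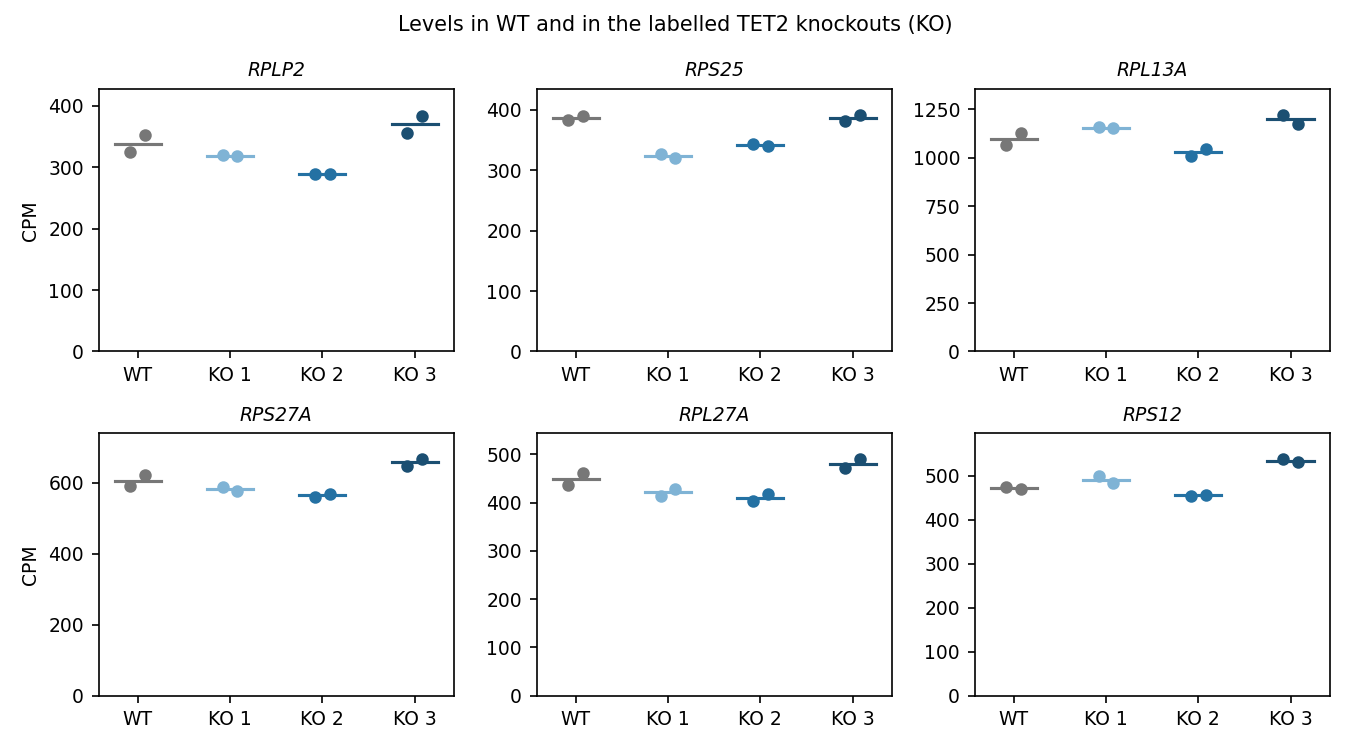
CPM (y axis, from 0) of 6 ribosomal protein genes in WT and in the libraries labelled TET2KO 1, 2 and 3 (x axis), with 1 point per library and a bar at the mean. RPLP2 is lowest in TET2KO 2 at 289 CPM and highest in TET2KO 3 at up to 384 CPM, RPS25 is lowest in TET2KO 1, and RPS12 is highest in TET2KO 3 at 538 and 530.2 CPM.

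Several of the largest falls were in members with few counts. RPS10 was at 3.20 and 2.80 CPM in WT, 2.26 and 1.45 in TET2KO 1, 0.987 and 1.14 in TET2KO 2, and 2.56 and 2.16 in TET2KO 3. Its fall in TET2KO 2 was the largest of any member called, at -1.495 on the log2 scale with an adjusted p of 3.54e-07 and an SE of 0.26. RPS10 shares 40.3% of its exon bases with the readthrough gene RPS10-NUDT3, and its 6529 counts over all libraries are few for a protein found in every ribosome. RPL36A was at 4.66 and 4.35 CPM in WT, 3.14 and 2.63 in TET2KO 1, 3.62 and 2.80 in TET2KO 2, and 4.10 and 3.68 in TET2KO 3. It fell by 0.65 and 0.49 in TET2KO 1 and 2 (adjusted p 0.00507 and 0.0293), and shares 22.45% of its exon bases with RPL36A-HNRNPH2 and GLA. DESeq2 called neither the fall of RPS10 in TET2KO 1 nor that of RPL36A in TET2KO 2. In TET2KO 1 both were lost without WT replicate 1 (-0.60 for RPS10 and -0.60 for RPL36A) or TET2KO 1 replicate 2 (-0.40 and -0.52). In TET2KO 2 the fall of RPL36A was lost without WT replicate 1 (-0.44), WT replicate 2 (-0.54) or TET2KO 2 replicate 2 (-0.31).

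Among the other named members, RPL18 and the paralog RPL7L1 rose in TET2KO 1. RPL18 was at 435 and 447 CPM in WT and at 458 and 483 in TET2KO 1 (0.10, SE 0.033, adjusted p 0.0264), and RPL7L1 at 319 and 330.0 and at 352 and 339.8 (0.09, SE 0.034, adjusted p 0.0417). RPS27L was at 25.8 and 23.8 CPM in WT and at 21.3 and 19.0 in TET2KO 1 (-0.30, SE 0.079, adjusted p 0.00215). RPL22L1 was at 16.9 and 19.4 CPM in WT, 15.3 and 14.9 in TET2KO 2, and 20.3 and 21.0 in TET2KO 3, with a call in TET2KO 2 alone (-0.27, SE 0.09, adjusted p 0.0166). RPL39L was at 25.7 and 27.5 CPM in WT and 31.3 and 32.4 in TET2KO 3 (0.26, SE 0.07, adjusted p 0.0034). Calls of all 5 of these genes were lost without single libraries. Without WT replicate 1, RPL18 was at 0.08, RPL7L1 at 0.07, RPS27L at -0.24 and RPL39L at 0.21. Without TET2KO 1 replicate 2, RPL18 was at 0.06 and RPS27L at -0.22, and RPL7L1 was at 0.07 without TET2KO 1 replicate 1 and at 0.09 without either TET2KO 2 library. RPL22L1 was at -0.17 without WT replicate 2, -0.28 without TET2KO 2 replicate 1 and -0.25 without TET2KO 2 replicate 2. DESeq2 did not call RPL18, and a block for the replicate number called neither RPL18 nor RPL7L1. RPS12 was at 474 and 468 CPM in WT, 498 and 484 in TET2KO 1, 455 and 455 in TET2KO 2, and 538 and 530.2 in TET2KO 3 (0.18 in TET2KO 3, SE 0.031, adjusted p 8.34e-07).

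RPL5 and RPL11 fell in TET2KO 1 and 2 and were near WT in TET2KO 3. RPL5 was at 870.1 and 929.6 CPM in WT, 845 and 832 in TET2KO 1, 817 and 842 in TET2KO 2, and 887 and 902 in TET2KO 3 (-0.10, -0.12 and -0.01). RPL11 stood at -0.09, -0.09 and 0.02. Without WT replicate 2 none of these falls was called (RPL5 -0.05 and -0.08, RPL11 -0.05 and -0.06). The falls in TET2KO 1 were also lost without its replicate 2 (-0.09 and -0.09) and that of RPL11 without its replicate 1 (-0.09), and those in TET2KO 2 without its replicate 1 (-0.10 and -0.05). In the stalk, RPLP0 was not called in any knockout (0.03, -0.05 and 0.07), while RPLP1 fell by 0.09 in TET2KO 2 and rose by 0.13 in TET2KO 3. RPS19 rose by 0.15 and RPS6 by 0.08 in TET2KO 3, RPSA rose by 0.08 in TET2KO 1 and by 0.11 in TET2KO 3, and RPS3 and RPS14 were called in none of the 3. Without WT replicate 1 the calls of RPLP1 in TET2KO 2 (-0.07), of RPS6 (0.04) and of RPSA in TET2KO 1 (0.05) and 3 (0.08) were lost. RPLP1 was also lost without TET2KO 2 replicate 1 (-0.07) or TET2KO 3 replicate 1 (0.09) in its own comparison, and RPS6 without TET2KO 3 replicate 2 (0.05) or either TET2KO 2 library (0.08 and 0.08). RPSA was lost in TET2KO 3 without its replicate 1 (0.08). In TET2KO 1 it was lost with DESeq2, without either TET2KO 1 library (0.09 and 0.07) and without either TET2KO 2 library (0.08 and 0.08).

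The other genes of the pathway were read against the same shares of all genes called, 17.5% in TET2KO 1, 26.3% in TET2KO 2 and 18.9% in TET2KO 3. Of 77 mitochondrial ribosomal protein genes, 1 rose and 10 fell in TET2KO 2 (14.3% called in either direction). Among all genes, 12.0% were called higher and 14.3% lower there. In TET2KO 3, 6 rose and none fell (7.79%), where 8.9% of all genes were called higher and 9.96% lower. In TET2KO 3 against TET2KO 2, 13 were higher and none lower (16.9%), where 17.3% of all genes were called higher and 16.8% lower. In its main direction, each of these counts was thus no larger a share than among all genes. The counts were nevertheless nearly all in 1 direction, whereas all genes were called about evenly in both. Medians of these genes were -0.02, 0.04 and 0.06 in the 3 comparisons, with the signs of the members' medians of -0.08, 0.06 and 0.13. Of 14 other TOP mRNAs, none rose and 4 fell in TET2KO 1, 1 rose and 3 fell in TET2KO 2, and 2 rose and 2 fell in TET2KO 3. MYCN was at 4600 and 4679 CPM in WT, 4548 and 4594 in TET2KO 1, 2815 and 2837 in TET2KO 2, and 4700 and 4715 in TET2KO 3. Its fall of 0.72 in TET2KO 2 (SE 0.026, adjusted p 9.33e-71) was in the group where the most members fell. Of the 6 factors known at ribosomal protein promoters and tested here, 1, 2 and 1 were called lower in TET2KO 1, 2 and 3, and none higher. Their lowest values were -1.93 in TET2KO 1 and -1.83 in TET2KO 3, and neither was that of MYCN. DDIT4, an inhibitor of mTOR complex 1, fell by 0.58 in TET2KO 2. The part of these genes in the members' values was not tested.

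Other values differed between the batch 2 groups as well. Mitochondrially encoded genes took 2.596% and 2.65% of counts in WT, 2.05% and 2.03% in TET2KO 1, 1.71% and 1.71% in TET2KO 2, and 3.11% and 3.17% in TET2KO 3, an order in which TET2KO 2 was lowest and TET2KO 3 highest, as for the members. Adrenergic markers summed to 7470 and 7649 CPM in WT, 7444 and 7543 in TET2KO 1, 5594 and 5686 in TET2KO 2, and 7503 and 7567 in TET2KO 3, and MYCN is among them. Mesenchymal markers summed to between 609 and 630.4 CPM in WT against between 169 and 278 CPM in the labelled knockouts. Endothelial markers summed to between 11.4 and 12.0 CPM in WT and between 1.45 and 4.63 CPM in the knockouts. The part of these values in the results was not tested.

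Levels of single members differed widely between the H2O libraries of batch 1 and the WT libraries of batch 2. Among 82 members with at least 100 counts on average in H2O, 12 (14.6%) were at least 4-fold higher in WT than in H2O, as were 72 of 11394 genes in all (0.632%). RPL7 was at 24.6 CPM in H2O and 941 in WT, RPS27 at 16.6 and 590, RPL21 at 16.1 and 488, and RPS26 at 9.70 and 235. RPL9, RPS28, RPL23A, RPL41, RPL39, RPS7 and RPSA were between 4.29 and 11.4 times higher. RPS10 lay the other way, at 0.127 times the H2O level. Many ribosomal protein genes have processed pseudogene copies, which can share reads with them, so levels of members with many copies are uncertain. Of 40 members with at least 10 annotated pseudogenes in GENCODE release 29, 9 were among the 12, against 3 of 42 with fewer, and across the 82 members Spearman's rho between pseudogene number and the ratio was 0.198. Batch, culture and counting cannot be told apart here, so these ratios are a description with no test. The 12 members gave 11 rises at 50 µM with a median of 0.18, and the other 70 gave 62 rises and 1 fall with a median of 0.21, so the direction under cobalt was seen in both.

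**Figure D5:**
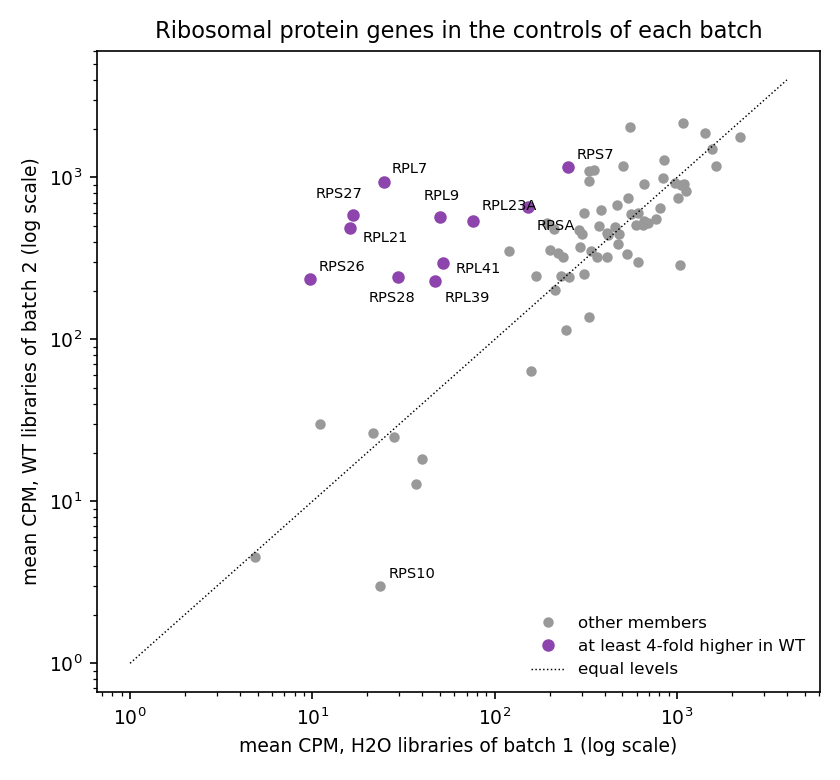
Mean CPM of the ribosomal protein genes reported here in the H2O libraries of batch 1 (x axis, log scale) and the WT libraries of batch 2 (y axis, log scale), with 1 point per gene and the line of equal levels. Genes at least 4-fold higher in WT are in purple, with RPL7 at 24.6 and 941 CPM, and RPS10 lies below the line.

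The TOP start and the response were also set side by side. Members that are not paralogs had a median log2 fold change at 50 µM of 0.22 where a C and pyrimidine run stood at a RefSeq start (46 genes) and 0.18 where none did (16 genes). The ranges were -0.07 to 0.36 and 0.03 to 0.34 and overlapped nearly in full. In TET2KO 2 the medians were -0.07 and -0.07, and in TET2KO 3 they were 0.06 and 0.05. RPL34 and RPS23, whose windows both carry a run, stood near opposite ends of the cobalt order at 0.36 and -0.06.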

How the data were processed

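Polyadenylated RNA of 14 SK-N-BE2 libraries (7 groups of 2) was analysed from the deposited counts per gene. The deposited counts came from featureCounts (1.5.3 for batch 1, 2.0.5 for batch 2), per the file headers, which name GENCODE 33 exons of genes that code for protein, on GRCh38. Read pairs were declared, while strand and multi-mapping were left at their defaults. The submitters' processing notes also name Trimmomatic 0.36, STAR 2.6.1d and Subread 1.5.3. With version 2.0.5 that option counts reads, not fragments. Among counts of 1 to 10, 77.3% to 80.5% were even in batch 2 against 39.0% to 42.3% in batch 1.

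Each batch was fitted separately in R 4.3.3 with edgeR 4.0.16 (filterByExpr, TMM, glmQLFit with robust = TRUE and legacy = FALSE, dispersion of at least 0.0001001), with 1 coefficient per group, over 13636 and 14061 genes. DESeq2 1.42.0 was an alternative. The SE was taken as the size of the log2 fold change over the root of the F statistic. Replicates differed by more than counting noise in every group (chi-square per gene 1.23 to 5.52). Over the members alone the value was larger, at 2.39 to 4.43 in the batch 1 groups. In batch 2 it was 20.8 in WT, 14.6 in TET2KO 1, 10.2 in TET2KO 2 and 43.5 in TET2KO 3. Where the spread exceeds counting noise this value grows with a gene's count, and most members have high counts. Counting the reads of a pair separately, as mostly in batch 2, also raises it. It therefore does not show that members were less reproducible than other genes. Replicate numbers did not pair libraries. Errors cover counting noise and the spread between libraries. On simulated counts for 50 µM against H2O over 13545 genes, 63.6% of changes of 0.2 (log2) and 93% of changes of 1 were recovered. The changed genes were drawn at random from all genes tested, with a common dispersion, so these rates are not those of the members.

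Members and gene lists were chosen with earlier results of these data known. Named genes are the 3 largest called rises and falls of each comparison, the 5 smallest p-values among knockouts, the 5 highest levels per kilobase, members with under 100 counts, the paralog pairs and members with roles of their own. CPM values use TMM-scaled totals. Sequences and starts are from RefSeq (GRCh38.p14). 17 members had no entry. Some genes that the rule names are not reported here.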

Additional observations from a re-analysis of the deposited data

Results flagged for a closer look

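A test of any difference among TET2KO 1, 2 and 3 called 69 of the 82 members tested, where 37.6% of all genes were called. The difference between the largest and the smallest of the 3 log2 fold changes against WT was 0.36 for RPLP2, 0.26 for RPS25, 0.22 for RPL13A, 0.22 for RPS27A and 0.23 for RPL27A. In RPLP2, RPL13A, RPS27A and RPL27A the lowest group was TET2KO 2 and the highest TET2KO 3, and in RPS25 the lowest was TET2KO 1. These 5 had the smallest adjusted p of the members in that test (edgeR, quasi-likelihood, adjusted over all genes by Benjamini-Hochberg).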

How the results depend on the processing

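For 10 µM CoCl2 the median was 0.0577 with library totals in place of TMM, and 31 members were called when all 14 libraries were fitted together. For TET2KO 2 library totals gave 17 called and a median of -0.045. For TET2KO 3 the length offset gave 18 and 0.0286, and the replicate block with the length offset 16 and 0.0268. The average of the knockouts called 0 with 1 coefficient, and the test among knockouts called 45 with library totals. The TET2KO 2 share per kilobase was 1.01 times that of WT, on the other side of 1 from the share of counts. The mean TET2KO 1 share was likewise above that of WT per kilobase and below it by counts. Per kilobase, the mean share of TET2KO 2 was above that of TET2KO 3. The causes were not tested.

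Leaving out 1 library gave 41 to 55 called at 10 µM, 70 to 74 at 50 µM, 58 to 67 between doses, 11 to 28 in TET2KO 1, 14 to 45 in TET2KO 2, 9 to 30 in TET2KO 3, 9 to 22 in the average and 51 to 70 among knockouts. The medians ran from 0.07 to 0.08, 0.19 to 0.21, 0.11 to 0.14, -0.03 to -0.01, -0.10 to -0.07, 0.0335 to 0.0816 and, for the average, -0.03 to 0.01. Share ratios ran from 1.04 to 1.05 at 10 µM, 1.14 to 1.16 at 50 µM, 0.979 to 1.01 in TET2KO 1, 0.962 to 0.989 in TET2KO 2 and 1.01 to 1.05 in TET2KO 3. The median of the average (0.01 without WT replicate 2) and the TET2KO 1 share ratio thus crossed to the other direction when a library was left out.

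Deviations of same-numbered replicates correlated at -0.0458 to 0.0229, so the numbers did not pair libraries. With the replicate block 52 members were called at 10 µM, 73 at 50 µM, 66 between doses, 19 in TET2KO 1, 36 in TET2KO 2, 23 in TET2KO 3, 14 in the average and 67 among knockouts. In simulated counts for 50 µM against H2O, 63.6% of changes of 0.2 on the log2 scale were recovered. That rate is for genes drawn at random from all genes tested, not for the members. Smaller changes were not simulated.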
